A study of Astragalus chrysochlorus with 2 samples.

Results

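Enzymes of the flavonoid core pathway were followed in callus of Astragalus chrysochlorus, a legume known as a secondary selenium accumulator. They are chalcone synthase, flavanone 3-hydroxylase and flavonoid 3'-hydroxylase, and 5 of the 82566 unigenes of the count table are described under these names: Unigene22245_All, Unigene30789_All and CL8296.Contig1_All (chalcone synthase), Unigene23158_All (flavanone 3-hydroxylase) and Unigene1886_All (flavonoid 3'-hydroxylase). A unigene is an assembled transcript sequence, and its name is its match to a protein of another plant species. The ending shared by all identifiers is left out from here on. The 5 unigenes were chosen by name from 972 unigenes whose names were at hand, all of which had been selected on the comparison described here. Names of the other unigenes were not used here, so further unigenes of these enzymes may be among them. The selection asked for a false discovery rate not above 0.001 and for a log2 ratio whose size reached 2. Their direction and the size of their ratios are therefore a description, with no test. The other contig of cluster CL8296 was not chosen in this way and is given beside them.

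RNA was sequenced from 1 library of Se-treated callus and 1 library of control callus, both grown on MS medium with 0.5 mg/L of the auxin 2,4-D. Callus is an undifferentiated tissue culture, and the cultures were long-term lines. For the Se treatment, callus aged 21 days was grown for 3 weeks in the presence of sodium selenate at 5 mg/L, and control medium held no selenate. Cultures were lit for part of each day. The libraries were of nearly equal depth, with 16.7 M fragments in the Se-treated and 16.7 M in the control library, a mean of 202 and 203 per unigene. A fragment is a sequenced piece of cDNA read from both ends. Cultures were kept in triplicate, and the sources used here do not say whether these were pooled, so no difference below has a replicate check and the intervals cover counting error only. In such bulk RNA, fewer cells of a type and less RNA per cell cannot be told apart.

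Flavonoids are phenolic compounds made from phenylalanine. Chalcone synthase takes the first committed step, joining p-coumaroyl-CoA with malonyl-CoA units to a chalcone, which chalcone isomerase closes to a flavanone. Flavanone 3-hydroxylase, a 2-oxoglutarate-dependent dioxygenase, turns flavanones into dihydroflavonols, from which flavonols, anthocyanins and proanthocyanidins arise. Flavonoid 3'-hydroxylase, a cytochrome P450 enzyme, adds a hydroxyl group to the B ring. In legumes, chalcone synthase is encoded by a family of similar genes and also feeds the isoflavonoids, whose route does not need flavanone 3-hydroxylase. Flavonoids are known for roles in pigmentation, light protection, defence and signalling to root bacteria.

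All 5 unigenes were lower in Se-treated callus. Together they had 736 fragments in the Se-treated library, against 4634 in the control library, which is a log2 ratio of -2.65 (95% counting interval -2.77 to -2.54). The level in Se-treated callus was 15.9% of the control level, and for the single unigenes it lay between 10.2% and 21.5%. Their median log2 ratio was -2.60, while the median over all unigenes was -0.09. At the threshold that selected them, 5 of 5 were called lower, and so were 912 of all unigenes (1.10%). With a log2 ratio of at most -1, 3838 unigenes (4.65%) were called lower. Nothing can be read from this contrast, because it chose the unigenes. Among these 972 unigenes no chalcone synthase, flavanone 3-hydroxylase or flavonoid 3'-hydroxylase was higher.

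**Figure D1:**
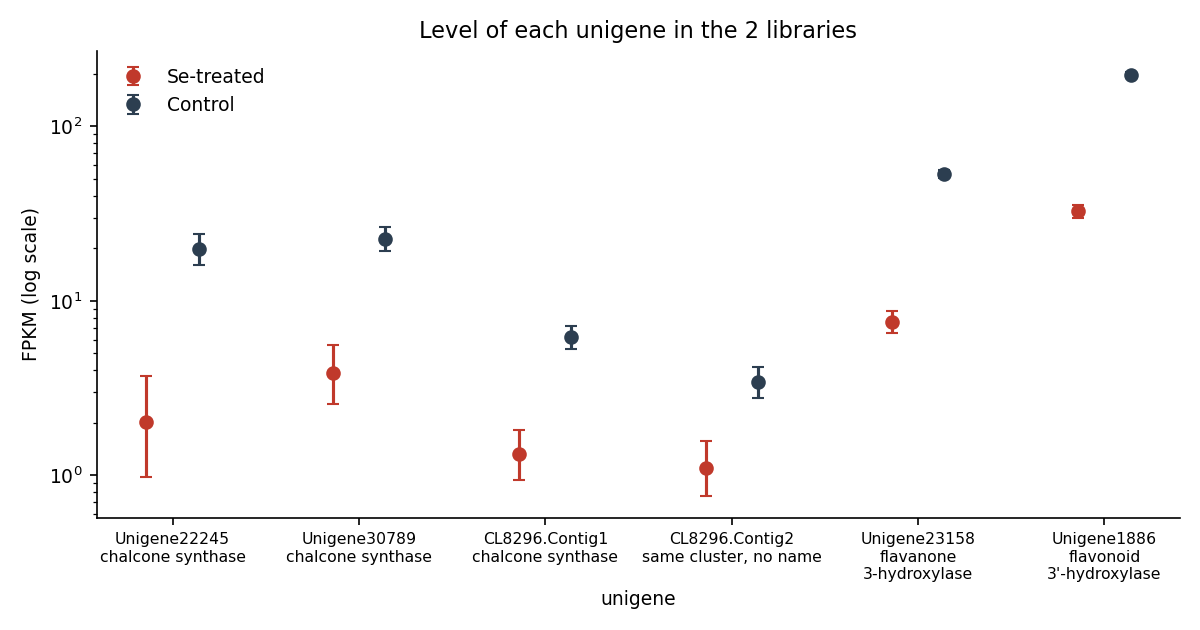
FPKM of the 5 named unigenes and of CL8296.Contig2 on a log scale, with the Se-treated library at the left and the control library at the right of each pair. Bars are exact 95% Poisson intervals of 1 library each, and in no pair do they overlap, from 1.11 against 3.43 FPKM for CL8296.Contig2 to 32.6 against 198 FPKM for Unigene1886.

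Chalcone synthase, the entry enzyme, had 3 unigenes. By FPKM, Unigene22245 stood above 90.9% of the unigenes with a fragment in the control library, Unigene30789 above 92.0% and CL8296.Contig1 above 76.7%. In the Se-treated library these shares were 43.8%, 66.3% and 33.0%. Unigene22245 had 10 fragments in the Se-treated library, against 98 in the control library. Its length is 295 nt, and this corresponds to 2.03 FPKM in Se-treated callus (95% Poisson interval 0.973 to 3.73) and 19.9 FPKM in control callus (16.1 to 24.2), where FPKM is the number of fragments per kilobase of unigene, scaled to the library total. The log2 ratio was -3.29 (-4.40 to -2.35), or 9.78-fold lower, the largest difference and the widest interval of the 5. Its upper bound alone corresponds to a 5.10-fold difference, and the width comes with the 10 fragments of the Se-treated library.

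Unigene30789 had the highest FPKM of the chalcone synthase unigenes in both libraries, though in neither was it above Unigene22245 beyond counting error. It had 28 fragments in the Se-treated library, against 165 in the control library, over a length of 434 nt. This gives 3.86 FPKM in Se-treated callus (2.57 to 5.58) and 22.7 FPKM in control callus (19.4 to 26.5), a log2 ratio of -2.56 (-3.19 to -1.97). Both Unigene22245 and Unigene30789 match the same protein entry, chalcone synthase 2 of Trifolium subterraneum. They are shorter than the median unigene of 785 nt. Whether they are pieces of 1 transcript or of separate gene copies was not tested, and similar copies can share reads.

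CL8296.Contig1 matches a chalcone synthase of Medicago truncatula and, at 1706 nt, is the longest of the 3. It had 38 fragments in the Se-treated library, against 177 in the control library, or 1.33 FPKM (0.944 to 1.83) and 6.20 FPKM (5.32 to 7.19). The log2 ratio of -2.22 (-2.76 to -1.70) was the smallest in size of the 5 and the nearest to the selection threshold of -2. Outside that threshold lies the other contig of the same cluster, CL8296.Contig2, which carries no name. CL8296.Contig2 has 1726 nt, with 32 fragments in the Se-treated library and 99 in the control library.

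The log2 ratio of CL8296.Contig2 was -1.63 (-2.25 to -1.04), or 3.09-fold lower in Se-treated callus, and it was called lower at the log2 ratio of -1 but not at that of -2. Contigs of a cluster can share reads, so its direction is not independent of that of CL8296.Contig1. The 2 contigs differed by -0.59 on the log2 scale (Contig1 minus Contig2), with an interval of -1.40 to 0.23 that includes 0. The other named unigenes had lower ratios than Contig2, with intervals of the difference that leave out 0. These differences were -1.66 for Unigene22245 (-2.93 to -0.50) and -0.93 for Unigene30789 (-1.80 to -0.06). They were -1.19 for Unigene23158 (-1.83 to -0.53) and -0.97 for Unigene1886 (-1.58 to -0.33). The named unigenes were chosen on this ratio and Contig2 was not. Summed over the cluster there were 70 fragments in the Se-treated library and 276 in the control library, a log2 ratio of -1.98 (-2.38 to -1.59). The cluster as a whole thus lay just outside the threshold that its first contig passed.

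Added up, the 3 chalcone synthase unigenes had 76 fragments in the Se-treated library and 440 in the control library, a log2 ratio of -2.53 (-2.90 to -2.18). With CL8296.Contig2 included, the sums were 108 and 539 fragments (-2.32, -2.63 to -2.02), that is, 4.98-fold lower in Se-treated callus.

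Flavanone 3-hydroxylase was represented by Unigene23158, which is 1460 nt long and matches the enzyme of Onobrychis viciifolia, another legume. It had 185 fragments in the Se-treated library, against 1308 in the control library. The level was 7.59 FPKM in Se-treated callus (6.53 to 8.76) and 53.6 FPKM in control callus (50.7 to 56.5). The log2 ratio was -2.82 (-3.05 to -2.60), or 7.06-fold lower. Among the 4378 unigenes with at least as many fragments, 3 had a log2 ratio this low or lower, this one included. Unigene23158 was chosen on this ratio, so the rank is a description and no test.

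Flavonoid 3'-hydroxylase had the highest level of the 5. Unigene1886, with 873 nt and a match to the enzyme of Medicago truncatula, had 475 fragments in the Se-treated library, against 2886 in the control library. This was 32.6 FPKM in Se-treated callus (29.7 to 35.6) and 198 FPKM in control callus (190 to 205). By FPKM it ranked 649 in the control library, above 99.2% of the unigenes with a fragment there, and 4637 in the Se-treated library (94.3%). The log2 ratio of -2.60 (-2.74 to -2.46) had the narrowest interval of the 5, since it rests on the most fragments. Of 1841 unigenes with at least as many fragments, 2 had a log2 ratio this low or lower, this one included. This rank, too, uses the ratio on which the unigene was chosen.

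**Figure D2:**
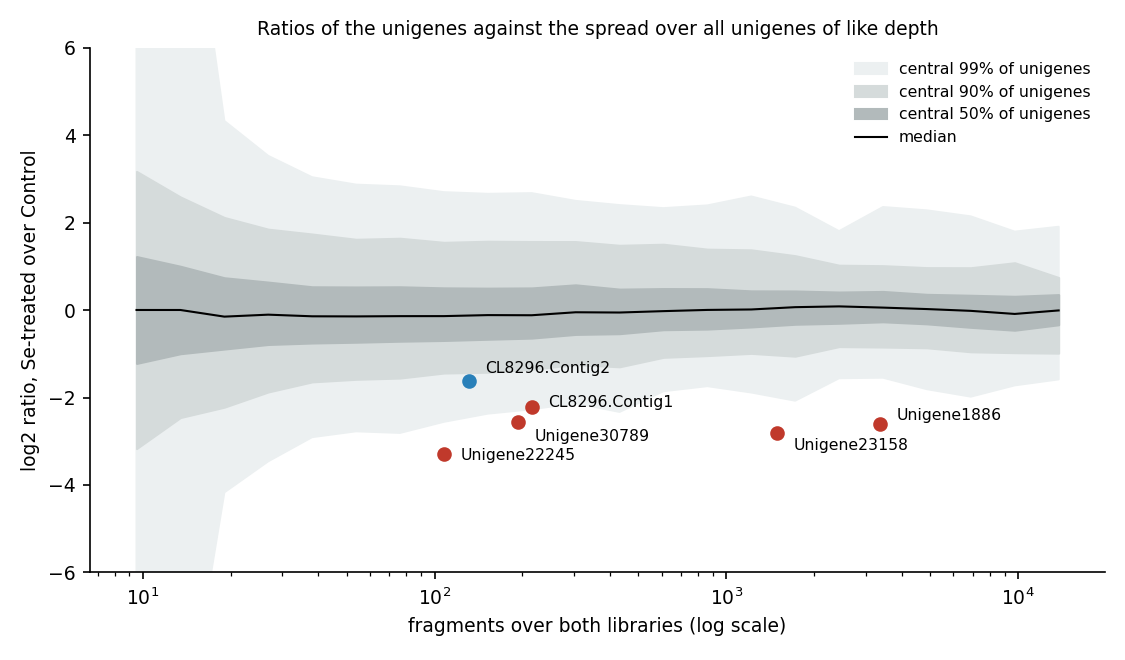
Log2 FPKM ratio (Se-treated over control) against the fragments of a unigene in both libraries (log scale), for the 5 named unigenes (red) and CL8296.Contig2 (blue). Grey bands hold the central 50, 90 and 99% of all unigenes in bins of like depth. The red points were chosen on this ratio, and 4 of them lie below the widest band, with CL8296.Contig1 (-2.22) just inside its lower edge.

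The share of unigenes called lower was smaller at greater depth. It was 1.12% of the 12990 unigenes with at least 100 but under 300 fragments over both libraries, the class of the 3 chalcone synthase unigenes. It was 0.403% of the 6204 unigenes with at least 1000 fragments, the class of both hydroxylases. At a log2 ratio of -1 the share was instead larger among the 27228 unigenes with at least 100 fragments. There 2491 were called lower, against 3838 of all 82566.

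The order of the levels per length was the same in both libraries, with Unigene1886 first, then Unigene23158, Unigene30789, Unigene22245 and CL8296.Contig1. Flavonoid 3'-hydroxylase stood 4.29-fold above flavanone 3-hydroxylase in Se-treated callus (3.62 to 5.12) and 3.69-fold in control callus (3.46 to 3.94). Flavanone 3-hydroxylase stood 1.96-fold above Unigene30789 in Se-treated callus (1.32 to 3.04) and 2.36-fold in control callus (2.00 to 2.79). The neighbours Unigene30789 and Unigene22245 could not be ordered in either library, with a ratio of 1.90 (0.897 to 4.39) in Se-treated and 1.14 (0.886 to 1.48) in control callus. Unigene22245 and CL8296.Contig1 could not be ordered in Se-treated callus (1.52, 0.676 to 3.11), while in control callus their ratio was 3.20 (2.48 to 4.12).

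Of the fragments of the 5 unigenes, flavonoid 3'-hydroxylase held 64.5% in the Se-treated and 62.3% in the control library, and flavanone 3-hydroxylase 25.1% and 28.2%. The ratios of the unigenes were also compared pair by pair, which is independent of the library totals. In 9 of 10 pairs the 95% interval of the difference of the log2 ratios included 0. All 5 had passed the same selection threshold, which narrows the spread of their ratios in advance. The likeness of their ratios is therefore no evidence of a common shift. Between the 2 hydroxylases the difference was -0.22 (Unigene23158 minus Unigene1886, -0.49 to 0.05), so differences below -0.49 or above 0.05 lie outside the counting interval. The exception was CL8296.Contig1 against Unigene23158, which differed by 0.60 (0.01 to 1.17), and this interval was not adjusted for the 10 pairs. The widest intervals were among those of the short Unigene22245, as against CL8296.Contig1 (-1.07, -2.30 to 0.04).

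**Figure D3:**
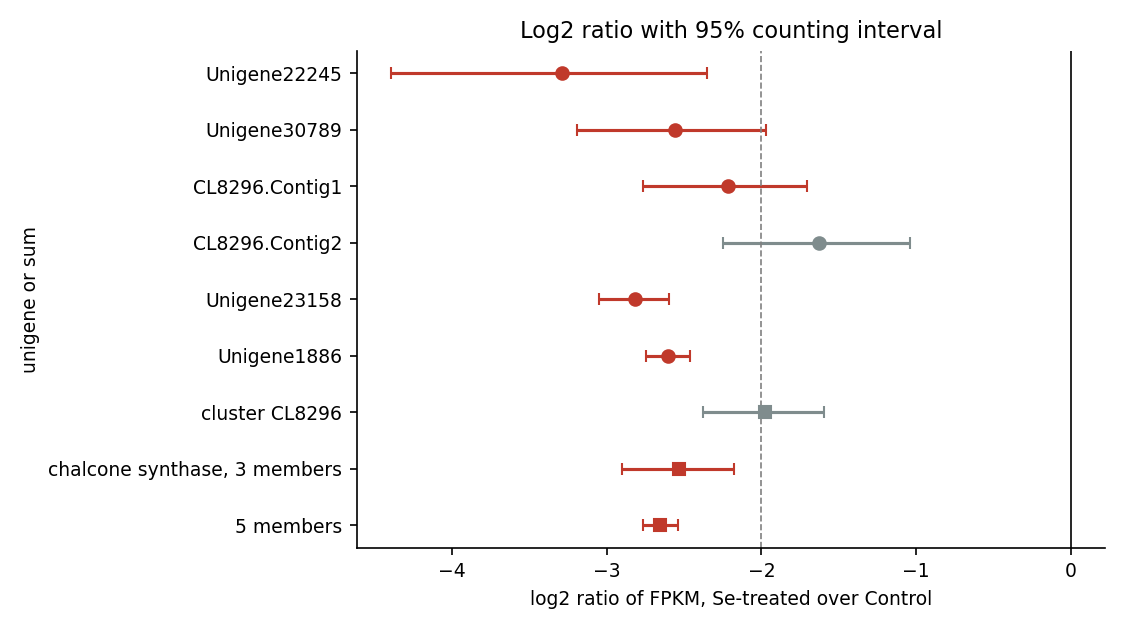
Log2 FPKM ratio (Se-treated over control) for each unigene (circles) and for summed fragments (squares), with exact 95% counting intervals. The dashed line marks the selection threshold of -2, which the intervals of Unigene30789, CL8296.Contig1, CL8296.Contig2 and the whole cluster CL8296 (-1.98) cross.

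Outside the clusters the direction of a unigene went with its number, and this touches 1 of the 5. In bins of 1000 numbers below 30000, between 47.5% and 62.2% of the unigenes were lower in Se-treated callus. Unigene1886, Unigene22245 and Unigene23158 have numbers in that range, and 0.654% of its 29954 unigenes were called lower at a log2 ratio of -2. In the bin of Unigene30789, which starts at 30000, 71.9% of 989 unigenes were lower and 4.25% were called lower. Among the 77 unigenes of that bin with at least as many fragments as Unigene30789, 68.8% were lower and 1.30% were called lower, which is Unigene30789 alone. The part of the number range in the ratio of Unigene30789 was not tested. Without Unigene30789 the chalcone synthase sums were 48 fragments in the Se-treated and 275 in the control library, a log2 ratio of -2.52 (-2.99 to -2.07), and the 4 other unigenes together had 708 and 4469 fragments (-2.66).

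**Figure D4:**
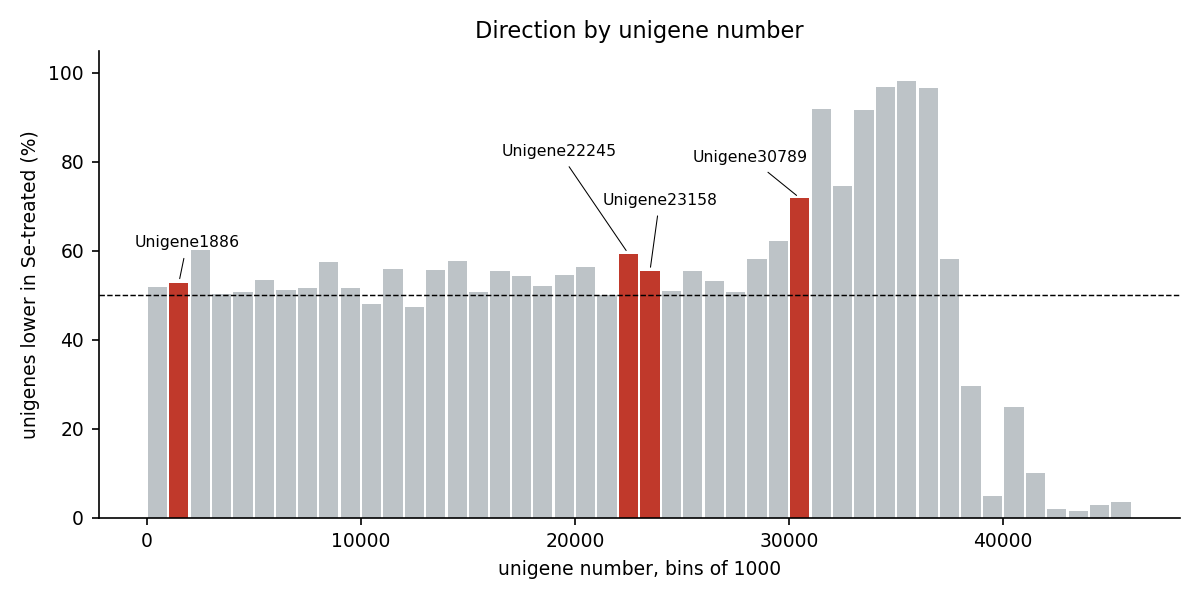
Share of unigenes outside the clusters that were lower in Se-treated callus (%), in bins of 1000 unigene numbers, with the dashed line at 50%. Red bars are the bins of Unigene1886, Unigene22245, Unigene23158 and Unigene30789, and only the last (71.9%) lies above the range of 47.5 to 62.2% of the bins below 30000.

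The other named enzymes around the core steps were taken by their role. All of them passed the selection thresholds, so their counts are no independent evidence of a direction, and 1.59% of all unigenes were called higher at these thresholds against the 1.10% called lower. Upstream of chalcone synthase, Se-treated callus had lower levels of 5 of 6 unigenes and a higher level of 1, and their median log2 ratio was -2.52. Phenylalanine ammonia-lyase, which makes cinnamate from phenylalanine, had 117 fragments in the Se-treated and 1130 in the control library for CL7848.Contig4 (-3.27, -3.56 to -2.99), and 16 and 90 for Unigene31527 (-2.49). The most abundant unigene of the 4-coumarate:CoA ligases, which supply p-coumaroyl-CoA, was Unigene11501, with 156 fragments in the Se-treated and 666 in the control library (-2.09, -2.35 to -1.84). Unigene10853, a further ligase, had 49 and 340 (-2.79), and Unigene32271 had 8 and 47 (-2.55). A 4-coumarate-CoA ligase-like protein (Unigene40078) was higher, with 21 fragments in the Se-treated and 2 in the control library (3.39, 1.36 to 6.53).

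Downstream of chalcone synthase, 5 of 6 unigenes were lower and 1 higher, with a median of -2.56. The isoflavonoid enzymes among them, Unigene33295 and Unigene38305, belong to the route that does not need flavanone 3-hydroxylase. A leucoanthocyanidin dioxygenase-like unigene (Unigene33275), of the enzyme that makes anthocyanidins, had 5 fragments in the Se-treated and 35 in the control library (-2.80, -4.51 to -1.45). For an isoflavone 7-O-methyltransferase-like unigene (Unigene33295) the fragments were 5 and 39 (-2.96). The flavonoid 3-O-galactosyltransferase CL465.Contig1 had 204 and 873 (-2.09, -2.32 to -1.87), and the anthocyanidin-glucoside rhamnosyltransferase CL9969.Contig1 had 70 and 655 (-3.22), while CL9969.Contig3 had 7 and 35 (-2.32). An isoflavonoid glucosyltransferase (Unigene38305) was higher, with 147 fragments in the Se-treated and 13 in the control library (3.50, 2.68 to 4.44). The one-sided number ranges touch several of these unigenes. Unigene33275 and Unigene33295 lie in a bin where 91.6% of unigenes were lower, Unigene31527 in one where 91.9% were and Unigene32271 in one where 74.5% were. The higher Unigene40078 and Unigene38305 lie in bins where 24.9% and 29.7% were lower.

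Of the lignin branch, which leaves the pathway before chalcone synthase, only cinnamyl alcohol dehydrogenase was listed. Both of its named unigenes were higher, and other enzymes of the branch were not examined. Unigene17125 had 290 fragments in the Se-treated and 49 in the control library, a log2 ratio of 2.57 (2.13 to 3.04). CL623.Contig1 had 25 and 0, or 8.35-fold higher when a floor of 3 fragments was put in place of the 0. With counting error in both libraries included, the lower 95% limit of its log2 ratio was 2.66. Its cluster of 3 contigs had 6475 and 2129 fragments (1.61). Of the MYB factors, a family that holds known regulators of flavonoid genes, 3 named unigenes were listed, and all 3 were lower. Whether the 972 names hold further MYB factors is not shown here. Unigene31017 had 6 fragments in the Se-treated and 49 in the control library (-3.03, in the same range of numbers as Unigene31527). At the other end, CL5128.Contig1 had 8 and 34 (-2.09). The unigene named MATE2 transporter (Unigene16618), of a transporter family that in Medicago moves flavonoid glycosides into the vacuole, was lower as well, with 369 and 1553 fragments (-2.07, -2.24 to -1.91). Whether any of these MYB factors acts on the 5 unigenes was not tested.

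**Figure D5:**
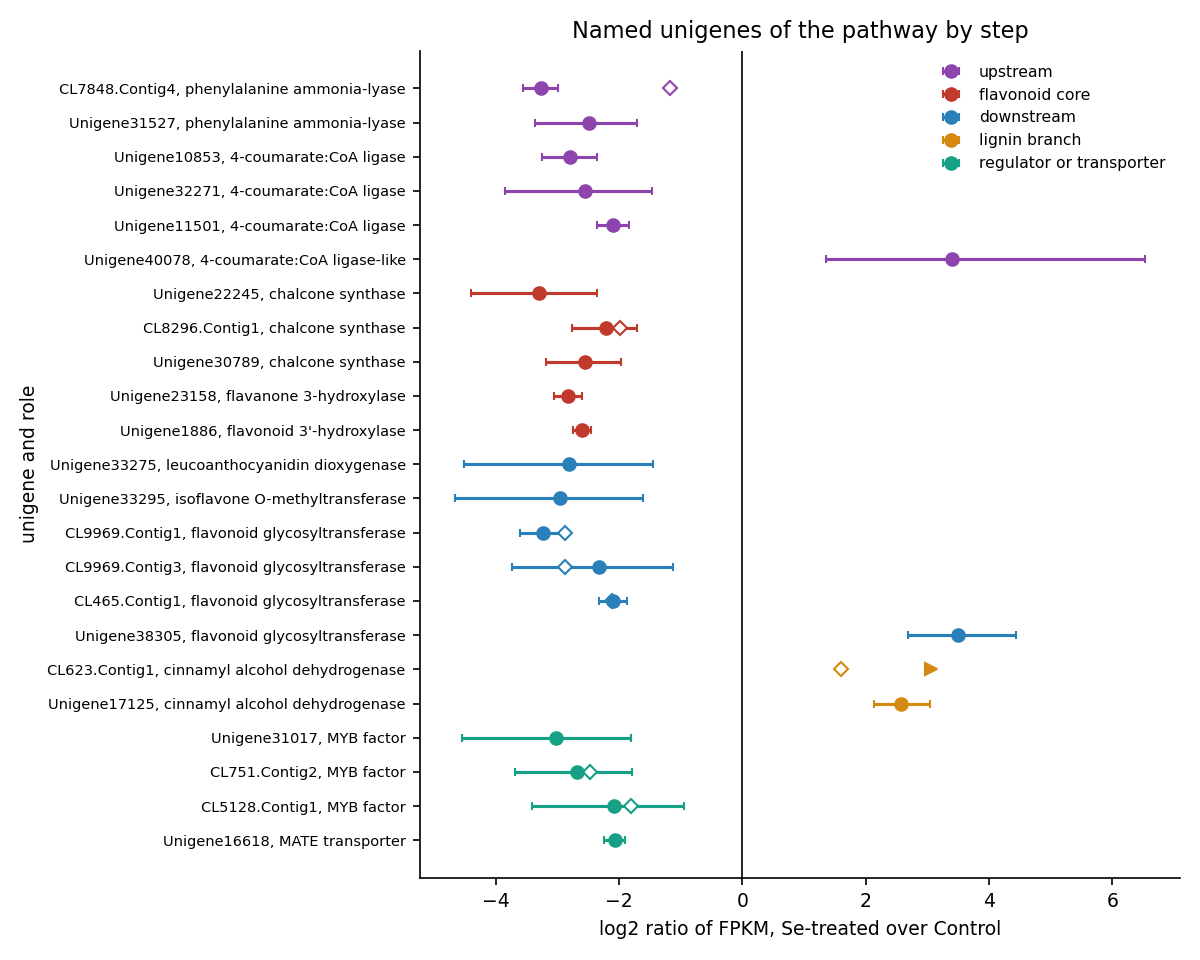
Log2 FPKM ratio (Se-treated over control) for the named unigenes, from the upstream steps at the top to regulators at the bottom, with exact 95% counting intervals. Open diamonds are whole clusters. The arrowhead stands for CL623.Contig1 after its control count of 0 was set to 3, and it is not the lower 95% limit of 2.66. The 5 flavonoid core unigenes (red) lie between -3.29 and -2.22 among mostly lower neighbours, with both cinnamyl alcohol dehydrogenases on the higher side.

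The contigs that share a cluster with one of these enzymes but were not named give values that the choice did not use directly. In the clusters of chalcone synthase and of the upstream and downstream enzymes there were 6 such contigs. All 6 had an interval below 0, with log2 ratios up to -0.53, 5 were called lower at a log2 ratio of -1 (4.65% of all unigenes) and 2 at -2 (1.10%). The most abundant were phenylalanine ammonia-lyase contigs. CL7848.Contig2 had 2565 fragments in the Se-treated and 3722 in the control library, a log2 ratio of -0.53 (-0.61 to -0.46), and CL7848.Contig3 had 2250 and 6229 (-1.47, -1.54 to -1.40). For the rhamnosyltransferase contig CL9969.Contig2 the fragments were 187 and 1240 (-2.73, -2.96 to -2.50). These contigs can share reads with their named neighbours. Over the whole phenylalanine ammonia-lyase cluster, with 4966 and 11209 fragments, the log2 ratio was -1.17, against the -3.27 of its named contig, so the named contigs need not stand for all copies of an enzyme. In the clusters of the MYB factors, all 3 other contigs had an interval below 0 (from -2.32 to -1.58) and 0 were called lower at a log2 ratio of -1. The other 2 contigs of the cinnamyl alcohol dehydrogenase cluster had intervals above 0 (1.60 and 1.80).

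The named unigenes whose levels lay nearest to each of the 5 were found by the distance of log2(FPKM + 1) over the 2 libraries, with no test. For Unigene22245 the nearest was the rhamnosyltransferase CL9969.Contig1 (distance 0.04). For Unigene30789 it was the peroxidase Unigene28577 (0.18), and the ligase Unigene10853 (0.27) was among the nearest 3. The nearest to Unigene23158 was a RING-H2 finger protein ATL3-like (Unigene25728, 0.38), with the MATE2 transporter second (0.55). At the high level of Unigene1886 the nearest were a polyol transporter (CL5166.Contig3, 0.42) and a defensin (CL5322.Contig1, 0.53). Next to CL8296.Contig1 were a 6-phosphofructokinase (Unigene33199, 0.05) and an F-box/kelch-repeat protein (CL7557.Contig1, 0.05). These distances rest on 2 values each and say nothing beyond level and ratio.

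Among the 972 names used here none was found for chalcone isomerase, dihydroflavonol reductase, flavonol synthase, leucoanthocyanidin reductase or cinnamate 4-hydroxylase, so these steps were not analysed here.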

How the data were processed

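The authors assembled the reads of both libraries with Trinity, TGICL and Phrap, took unigene names from Blast matches and aligned reads to the unigenes with SOAP, which placed a read with several equal hits at random. The deposited table holds raw fragment counts per unigene and its length for 1 Se-treated and 1 control library. Its stored FPKM values have lost the decimal mark where they are 1 or more (all 10 values of the 5 unigenes equal 10000 times the FPKM computed from the counts, within 0.6), so FPKM was computed from the counts, the lengths and the library totals. The authors' own P-values, FDR and direction in the table were not used.

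Log2 ratios are those of FPKM in the Se-treated over that in the control library, where 0 was set to 0.001. Intervals are exact at 95%, namely Clopper-Pearson for ratios, Poisson for counts and conditional for the difference of 2 ratios. Fragments are not independent molecules, and no interval, nor the floor of 3 fragments, covers more than counting error. Calls used a two-sided Audic-Claverie test with Benjamini-Hochberg adjustment over all 82566 unigenes, a test that compares 2 libraries and not the conditions. It was tried on simulated counts with Poisson error only, which cannot show how the calls hold under variation between cultures. The text names the 5 unigenes, the other contig of CL8296, unigenes listed by role and the nearest 3 of each of the 5, of which not all are printed. Other contigs of the listed unigenes' clusters were named after their values were seen. The members and lists were chosen with earlier results of these data known. Alternatives were scaling by the trimmed mean of M values (TMM, edgeR 4.0.16 in R 4.3.3), recentring, pseudocounts, filters, another test and summing of contigs. Computation was in Python 3.11.15 (scipy 1.17.1, pandas 2.3.3, numpy 2.4.6) with plots in matplotlib 3.10.9.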

Additional observations from a re-analysis of the deposited data

How the results depend on the processing

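The log2 ratios of the 5 unigenes stayed below 0 in all 21 alternatives and within their counting intervals in 20. The exception was CL8296.Contig1 with 1 FPKM added to both libraries, which gave -1.63. TMM scaling moved all ratios by 0.08 and recentring by 0.03. At a log2 ratio of -2, 218 of the 27228 unigenes with at least 100 fragments were called lower, against 912 of all 82566. With 1 FPKM added, 249 of all 82566 were called lower, and 4 of the 5 unigenes were among them. At a log2 ratio of -1, 2491 of the 27228 with at least 100 fragments were called lower, against 3838 of all 82566, so the share was larger there. With 1 FPKM added, the median of the MYB factors and the transporter was -1.62, against -2.38. The median of the photosynthesis list, which was near 0, became 0.54 with 1 FPKM added and 0.033 after recentring. For chalcone synthase, leaving out Unigene30789 was an alternative chosen after seeing the data, and it gave -2.52 against -2.53. With 1 library per condition no replicate could be left out, and 10 fragments in the Se-treated library limit what Unigene22245 can show.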

Other observations

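Photosynthesis genes were listed as a sign of greening of the callus, since light also acts on flavonoid genes. Of 6 named unigenes, 3 had a higher and 3 a lower level in the Se-treated library. Rubisco activase, which keeps the carbon-fixing enzyme active, was higher, with 1572 fragments in the Se-treated and 305 in the control library for CL881.Contig1 (log2 ratio 2.37, 95% counting interval 2.19 to 2.55) and 796 and 175 for CL881.Contig2 (2.19). The PAM68-like unigene (Unigene41220) had 51 and 1, and it lies in a bin of 1000 unigene numbers where 10.1% of unigenes were lower in Se-treated callus and 158 were called higher. The photosystem II CP47 unigene (CL952.Contig3) was lower, with 175 fragments in the Se-treated and 799 in the control library (-2.19, -2.43 to -1.95). The other contigs of its cluster did not share this, with 133 and 128 fragments for CL952.Contig4 (0.06, -0.30 to 0.42) and 5 and 3 for each of CL952.Contig1 and CL952.Contig2. A photosystem I A1 contig (CL5262.Contig2) had 13 and 94 (-2.85), and CL5262.Contig3 had 0 and 17, while the third contig of that cluster, CL5262.Contig1, had 104 and 46 (1.18). The part of greening in the flavonoid values was not tested.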
